A study of Oryza sativa Japonica Group with 20 samples.

Results

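Shoots of 14-day-old seedlings of the rice cultivar Nipponbare were compared after 24 h in 80 µM sodium arsenite and before any treatment. The comparison took in the 13030 loci, of 57624 in the deposited mRNA tables, that reached 5 RPKM (reads per kilobase of gene, scaled to the number of mapped reads) in at least 1 of these libraries. Of these, 8347 reached 5 RPKM in both libraries, 3901 in the untreated library alone and 782 in the treated library alone. Change was taken as log2((treated + 1)/(untreated + 1)) on RPKM, and a locus was called higher or lower when it changed at least 2-fold on this scale, which understates the change of genes with low values.

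In the series, roots and shoots were each harvested untreated (0 h) and from both of 2 doses, 20 and 80 µM, at both of 2 times, 6 and 24 h, for mRNA and small RNA libraries. All plants were Nipponbare seedlings of the same age in nutrient solution, and the groups used here differ in tissue, dose and time alone. Arsenite was added at the start of the light period, so the untreated and the 24 h plants were harvested at the same hour, while no untreated plants were analysed for the 6 h harvest. Each group has 1 library, the sources used here do not give the number of seedlings behind it, and no p-value or error between replicates can be given for any value. Whole shoots were used, so fewer cells of a type and less RNA per cell cannot be told apart.

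Arsenite, the trivalent form of arsenic, enters rice through silicon and other aquaglyceroporin channels. Inside the cell it binds thiols such as those of glutathione and phytochelatins, and part of it is stored in vacuoles. Leaf mRNA is dominated by genes of photosynthesis and carbon fixation, many of which cycle with the hour of day. Abscisic acid is the hormone of water shortage, and it induces protective proteins of the late embryogenesis abundant (LEA) and dehydrin families.

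The treated library differed from the other shoot libraries as a whole. Its values summed to 337100.2 RPKM against 330325.5 in the untreated library, but 9129 loci reached 5 RPKM against 12248, and 38060 against 33084 loci were listed at 0. The 100 loci with the highest values held 19.06% of its sum, compared with 9.88% in the untreated library and 11.52 to 12.11% in the 3 other treated shoot libraries. From low values of the same genes, the value of 1 read in it was 1.01 times that in the untreated library, so their relative depths were close; absolute depth is unknown. The summed level of 5 shoot markers was 1929.2 RPKM untreated and 3686.0 RPKM treated, against 10.7 to 273.0 RPKM in the root libraries, and none was listed at 0 in these 2 shoot libraries. The summed level of 8 root markers was 44.3 and 76.7 RPKM, with 2 and 4 of them listed at 0. It was 359.5 RPKM in the shoot library labelled 20 µM 6 h, 1014.8 RPKM in untreated roots and 15.6 RPKM in roots at 80 µM 24 h, so these markers cannot show root material of that treatment.

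The libraries labelled 20 µM 6 h and 20 µM 24 h carry each other's code in their column headers, so their time labels are in doubt. Where 5 values of a gene are given below, they are RPKM in the order untreated, labelled 20 µM 6 h, 80 µM 6 h, labelled 20 µM 24 h and 80 µM 24 h. All treated shoot libraries share the same untreated library. Counts for a gene list cover every identifier written for it, while genes are named only where a reference annotation lists the name on the same chromosome.

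Lower levels outnumbered higher ones after 24 h in 80 µM arsenite. Of the 13030 loci, 1192 were higher (9.15%), 3920 were lower (30.1%) and 7918 lay between (60.8%), with a median change of −0.44 and the middle of the distribution running from −1.18 to 0.21 between the 25% and 75% points. At least 4-fold changes were found for 272 higher and 1572 lower loci, and at least 16-fold changes for 11 higher and 209 lower loci. Of the lower loci, 754 were listed at 0 in the treated library, and of the higher loci 75 were listed at 0 in the untreated library. Higher loci made up 23.3% of the calls with RPKM as deposited and 47.7% when both libraries were set to an equal upper quartile, which gave 2303 higher and 2529 lower loci. Rescaling moved the median of all loci to −0.28 with median ratios, −0.32 without the 100 top loci and 0.04 with equal upper quartiles, so changes are best read against the median of −0.44.

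The balance depended on how abundant a transcript was in the untreated shoot. Among 8243 loci at 5 to 20 RPKM there, 355 were higher and 2881 lower, with a median change of −0.61. Among 3534 loci at 20 to 100 RPKM, 296 were higher and 951 lower, with a median of −0.36. Among 471 loci at 100 RPKM or more, 103 were higher and 88 lower, with a median of 0.25. The 782 loci under 5 RPKM untreated entered only through the treated library, so their 438 higher and 0 lower calls follow from the choice of loci. Loci just inside the minimum, with a highest value of 5 to 6 RPKM, numbered 1206 with a median change of −0.63, and the 1524 just outside it, at 4 to 5 RPKM, had a median of −0.70. Across the 12 chromosomes the share lower ranged from 27.6 to 32.7% and the share higher from 7.5 to 12.0%.

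About equal shares of both directions stood apart from every other shoot library. Of the 13030 loci, 585 (4.49%) were at least 2-fold higher in the treated library than in each of the 4 other shoot libraries, and 2140 (16.4%) were at least 2-fold lower. These are 49.1% of the higher and 54.6% of the lower loci.

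**Figure D1:**
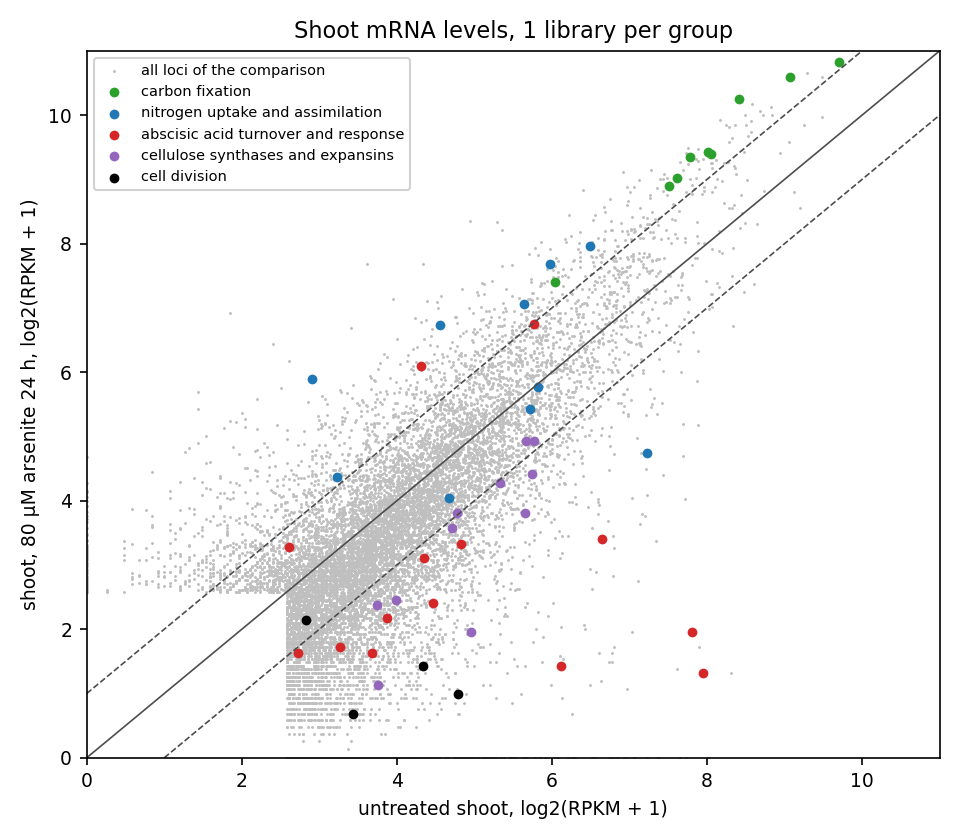
Each point is a locus of the comparison, with its level in the untreated shoot on the x axis and after 24 h in 80 µM arsenite on the y axis, both as log2(RPKM + 1); the solid line marks equal levels and the dashed lines 2-fold differences. Members of carbon fixation (green) lie above the upper dashed line, and most members of the abscisic acid (red), cellulose synthase and expansin (purple) and cell division (black) lists lie below the lower one.

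Genes of photosynthesis and carbon fixation were among the abundant transcripts with higher levels. Of 9 carbon fixation genes, 9 were higher and 0 lower, with a median change of 1.41, and in 9 of 9 the treated library had the highest value of the 5 shoot libraries. Their summed level was 2893.3 RPKM untreated and 7740.3 RPKM treated. RCA, LHCB2, CAB1R and CAB2R, described here, are also among the shoot markers. Of 19 genes for light-harvesting proteins and photosystem subunits, 14 were higher and 0 lower, with a median of 1.24 and summed levels of 5728.5 and 13212.0 RPKM. The shares of higher calls among all loci, 9.15%, and the median of all loci, −0.44, are the background for these counts. Compared with the library labelled 20 µM 6 h in place of the untreated one, 4 of the 9 carbon fixation genes and 9 of the 19 light-harvesting and photosystem genes were at least 2-fold higher.

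RBCS1 (LOC_Os12g17600), a small subunit of the carbon-fixing enzyme Rubisco, was at 538.4, 1000.9, 630.3, 732.9 and 1545.1 RPKM, a change of 1.52 from untreated to 80 µM 24 h. RCA, Rubisco activase, which frees the enzyme from inhibitory sugars, was at 834.6, 1227.2, 756.6, 768.2 and 1810.0 RPKM, a change of 1.12, and was the locus with the highest value in both the untreated and the treated library. For both genes the library labelled 20 µM 6 h came next after the treated one. PSAH (LOC_Os05g48630), a subunit of photosystem I, was at 235.0, 293.2, 377.0, 419.2 and 706.1 RPKM, a change of 1.58. PSB28 (LOC_Os01g71190), an assembly factor of photosystem II, was at 56.9, 57.9, 15.2, 20.9 and 166.1 RPKM, a change of 1.53. PSB28 was more than 2-fold above each other shoot library, while PSAH was not. The chlorophyll-binding antenna genes with checked names did not reach 2-fold: LHCB2 went from 355.1 to 684.1 RPKM, CAB1R from 191.3 to 281.5 RPKM and CAB2R from 283.7 to 235.4 RPKM. Most members written down as other antenna genes, whose names could not be checked, were higher. CAB2R had its lowest value of the 5 shoot libraries in the treated one, against 387.7 to 495.4 RPKM in the 3 other treated libraries.

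Within chlorophyll synthesis the genes parted. Of 7 members, 2 were higher and 1 lower, against 9.15% and 30.1% of all loci, with a median of 0.54. With equal upper quartiles 4 were higher. PORA (LOC_Os04g58200), a light-dependent protochlorophyllide oxidoreductase best known from seedlings that green after darkness, was at 237.6, 190.0, 332.7, 238.3 and 2.3 RPKM, a change of −6.18. All 4 other shoot libraries held it at 190.0 RPKM or more. PORB, the related oxidoreductase, was at 35.0 RPKM untreated and 19.3 RPKM treated and did not reach 2-fold. CAO1 (LOC_Os10g41780), the oxygenase that makes chlorophyll b, was at 51.7, 77.5, 36.4, 46.2 and 140.6 RPKM, a change of 1.43. CHLH, a subunit of the magnesium chelatase that opens the chlorophyll branch, was at 58.2, 57.1, 47.9, 61.9 and 140.3 RPKM, a change of 1.26. The other chelatase subunits did not reach 2-fold, with CHLI at 66.9 and 97.6 RPKM and CHLD at 14.6 and 20.2 RPKM in the untreated and treated libraries.

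Genes of chlorophyll breakdown and leaf senescence were lower. Of 6 members, 5 were lower and 0 higher, with a median of −1.74, against 30.1% lower among all loci. SGR, the magnesium dechelatase that starts chlorophyll breakdown, was at 29.1, 10.2, 26.0, 12.0 and 7.9 RPKM, a change of −1.76. NYC1, a chlorophyll b reductase, was at 32.0, 12.7, 18.0, 16.5 and 9.0 RPKM, a change of −1.72. ICL (LOC_Os07g34520), isocitrate lyase of the glyoxylate cycle, was at 110.3, 4.6, 114.2, 13.9 and 8.6 RPKM, a change of −3.54. For SGR and NYC1 all treated libraries lay below the untreated one, and ICL was also low in the libraries labelled 20 µM.

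**Figure D2:**
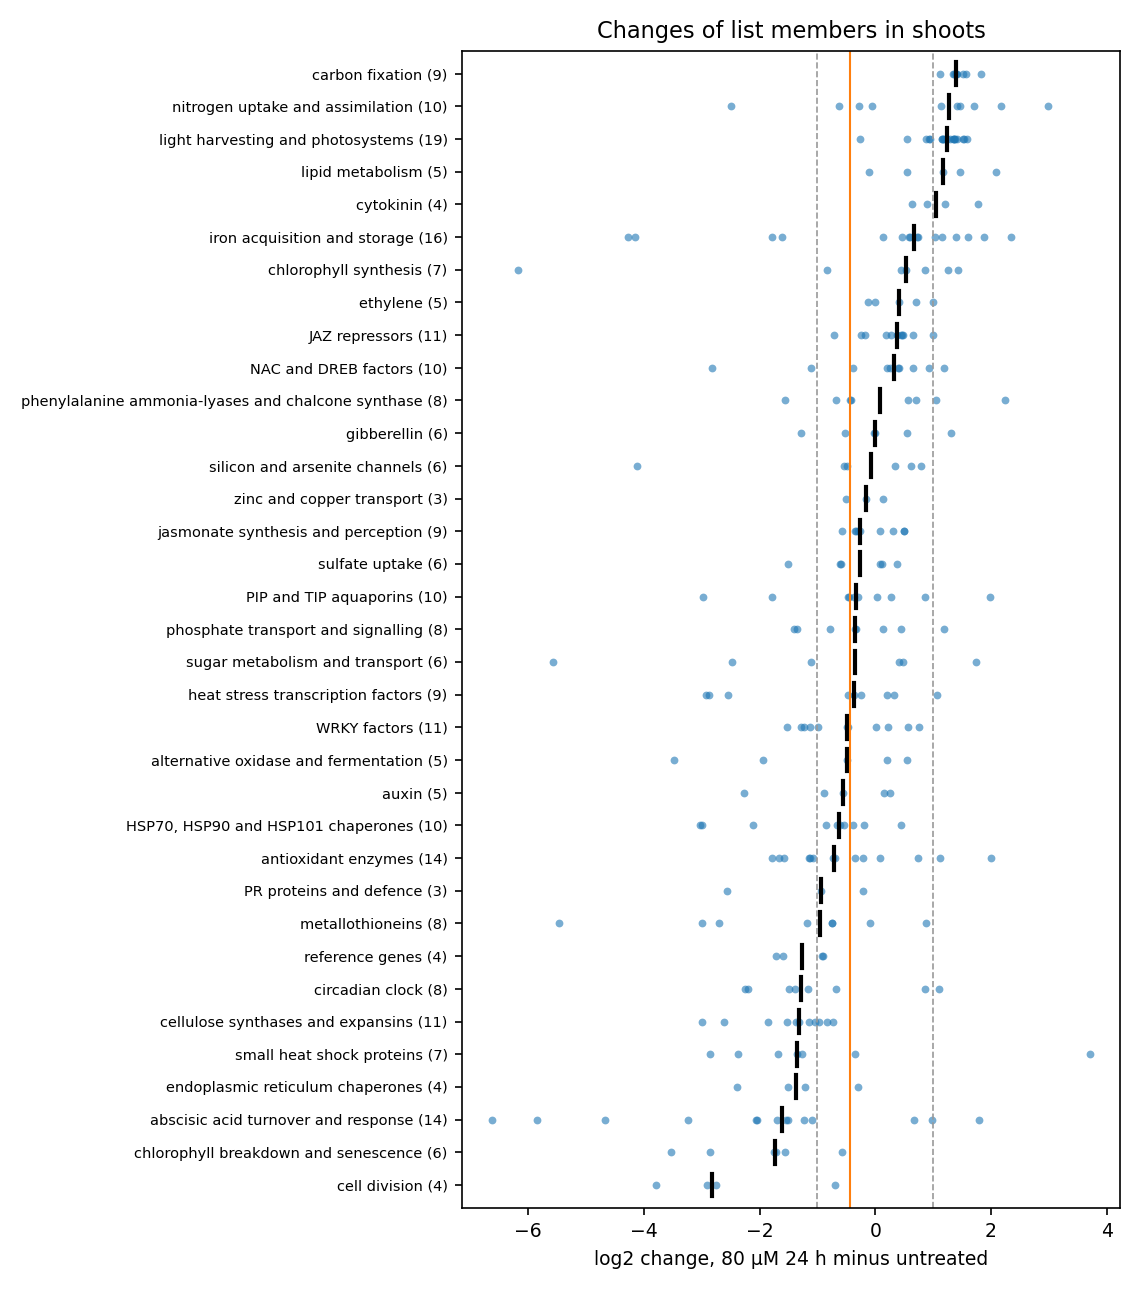
Each blue point is 1 member of a gene list, placed by its log2 change from the untreated shoot to 80 µM 24 h on the x axis; lists with at least 3 members are the rows, with the number of members in brackets, black bars at list medians, dashed lines at 2-fold and an orange line at the median of all loci, −0.44. Carbon fixation has the highest list median, 1.41, and cell division the lowest, −2.83.

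Nitrogen assimilation genes followed the direction of carbon fixation. Of 10 members of the nitrogen list, 6 were higher and 1 lower, against 9.15% and 30.1% of all loci, with a median of 1.28. NIA1 (LOC_Os08g36480), a nitrate reductase, which makes nitrite from nitrate, was at 6.5, 6.2, 2.0, 1.9 and 58.4 RPKM, a change of 2.99. It was at or under 6.5 RPKM in all 4 other shoot libraries. GS2 (LOC_Os04g56400), the chloroplast glutamine synthetase, was at 89.0, 144.2, 71.3, 88.3 and 247.8 RPKM, a change of 1.47. GLU (LOC_Os07g46460), ferredoxin-dependent glutamate synthase, its partner in ammonium assimilation, was at 62.1, 106.2, 53.1, 70.5 and 204.8 RPKM, a change of 1.71. AMT1;1, an ammonium transporter, was at 49.0, 57.0, 42.3, 23.6 and 132.0 RPKM, a change of 1.41. In GS2, GLU and AMT1;1 the treated library had the highest value and the library labelled 20 µM 6 h the next. Of the cytosolic glutamine synthetases, GS1;2 was higher, at 8.4 and 19.7 RPKM, while GS1;1 was at 55.4 and 53.3 RPKM.

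Among the channels through which arsenite is known to move, NIP1;1 (LOC_Os02g13870), a nodulin-26-like aquaglyceroporin permeable to arsenite, was called with RPKM as deposited and no other channel was. It was at 26.7, 40.6, 50.3, 59.6 and 0.6 RPKM, a change of −4.11, so the other treated shoot libraries all lay above the untreated one and the 80 µM 24 h library far below it. LSI6, the silicon channel that unloads the xylem in leaves, was at 32.9, 34.7, 8.4, 20.6 and 51.0 RPKM. LSI1, the silicon and arsenite uptake channel of roots, was at 7.1 RPKM untreated and 4.6 RPKM treated, and NIP3;1, a boron channel, at 2.8 and 5.6 RPKM. The list of silicon and arsenite channels, arsenate reduction and vacuolar storage had 0 of 6 members higher and 1 lower. The shares among all loci were 9.15% and 30.1%. The list's median of −0.07 turned positive under each of the 3 rescalings. Equal upper quartiles made 2 members higher.

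Thiol metabolism and metal-binding proteins held lower levels or no call. Of 6 members for sulfate uptake, assimilation and thiol synthesis, 0 were higher and 1 was lower, with a median of −0.25. With equal upper quartiles the median was 0.24 and 0 members were lower. The lower member as deposited was APR1, adenosine phosphosulfate reductase, which commits sulfate to reduction, at 99.1, 70.3, 29.7, 27.7 and 34.1 RPKM, a change of −1.51. Its level in the 80 µM 24 h library was above that in 2 other treated shoot libraries. Metallothioneins, small cysteine-rich metal-binding proteins, were lower in 4 of 8 cases and higher in 0, with a median of −0.96. Among all loci 30.1% were lower and 9.15% higher. Under each of the 3 rescalings 1 metallothionein was higher, and with equal upper quartiles 3 were lower. MT1B (LOC_Os03g17870) was at 43.4, 14.9, 39.5 and 27.5 RPKM in the other shoot libraries and listed at 0 in the treated one. MT2b was at 129.3, 84.6, 79.8, 78.4 and 15.4 RPKM, a change of −2.99, and MT4A at 234.6, 139.3, 159.1, 35.8 and 35.2 RPKM, a change of −2.70. MT2c had its highest value in the treated library, 177.5 RPKM, against 96.2 RPKM untreated, which is short of 2-fold.

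The iron list moved in both directions. Of 16 members, 6 were higher and 4 lower, against 9.15% and 30.1% of all loci, with a median of 0.66. With equal upper quartiles 10 were higher and 4 lower. NRAMP1 (LOC_Os07g15460), a metal transporter of the plasma membrane known for iron and cadmium uptake, was at 64.9, 119.7, 43.8, 56.3 and 199.4 RPKM, a change of 1.60. The vacuolar iron transporters parted, with VIT1 at 13.0 and 27.5 RPKM, a change of 1.03, and VIT2 (LOC_Os09g23300) at 18.4 RPKM untreated and listed at 0 treated; VIT2 was also at 0.6 RPKM or listed at 0 in the other treated shoot libraries. The nicotianamine synthases, which make the chelator that carries iron in phloem and xylem, parted too. NAS3 (LOC_Os07g48980) was at 16.7, 5.3, 2.2 and 2.1 RPKM in the other libraries and listed at 0 in the treated one. NAS1 was at 20.0, 189.9, 8.8, 4.1 and 45.8 RPKM, a change of 1.16, and NAS2 at 15.2, 158.7, 7.2, 5.4 and 25.7 RPKM. Both were highest in the library labelled 20 µM 6 h. NAS1 and NAS2 are close copies and also belong to the root markers, of whose 76.7 RPKM in the treated shoot they made up 45.8 and 25.7 RPKM. In roots at 80 µM 24 h they were at 0.9 and 2.6 RPKM, below the treated shoot. Of 3 measured zinc and copper transporters 0 were called, and of 8 phosphate genes 1 was higher and 2 were lower, or 0 lower with equal upper quartiles. PT4, a phosphate transporter, was higher at 2.1 and 6.1 RPKM, and PT8, a main route of arsenate and phosphate uptake, was at 77.1 and 44.3 RPKM. PT4 entered only through the treated library.

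Aquaporins of the plasma membrane and the vacuole, which conduct water, had 1 higher and 2 lower members of 10, with a median of −0.34 (0.19 with equal upper quartiles, which made 2 higher). As deposited, these counts are near or under the shares among all loci, 9.15% higher and 30.1% lower. PIP2;7 (LOC_Os09g36930) was at 20.5, 40.5, 27.5, 38.8 and 84.4 RPKM, a change of 1.99. PIP2;6 was at 204.8, 257.2, 338.8, 402.0 and 25.0 RPKM, a change of −2.98, and TIP2;2 at 156.1, 269.1, 405.3, 399.5 and 44.4 RPKM, a change of −1.79. Both stood above the untreated value in all 3 other treated shoot libraries and below it at 80 µM 24 h, as NIP1;1 did. PIP1;1, PIP1;2, PIP2;1 and PIP2;2 changed by −0.45, 0.03, −0.30 and 0.28.

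Most genes of the abscisic acid list were lower, and LEA3 on it had the largest decrease among named genes. Of 14 members, 11 were lower and 1 higher, against 30.1% and 9.15% of all loci, with a median of −1.62 (9 lower and 3 higher with equal upper quartiles), and in 10 the untreated library had the highest value of the 5 shoot libraries. LEA3 (LOC_Os05g46480), an LEA protein of drying tissue, was at 245.1, 1.3, 32.9, 1.8 and 1.5 RPKM, a change of −6.62. The dehydrin RAB16A (LOC_Os11g26790) was at 223.0 RPKM untreated, listed at 0 in the library labelled 20 µM 6 h, and at 128.9, 2.7 and 2.9 RPKM in the next 3, a change of −5.84. RAB16B (LOC_Os11g26780), its neighbour, was at 68.2 RPKM untreated, listed at 0, then at 17.3, 1.0 and 1.7 RPKM, a change of −4.68. LEA3, RAB16A and RAB16B were thus highest untreated, intermediate at 80 µM 6 h, and at 2.9 RPKM or less at 80 µM 24 h and in both libraries labelled 20 µM. With each of the 3 other treated libraries as the reference, 2 to 5 members of the list were lower. Most of the 11 members lower than untreated were under 5 RPKM at 80 µM 24 h. They entered only through the untreated library. RAB16 genes are near-identical neighbours, so reads may have been split among them.

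Genes of abscisic acid synthesis and breakdown differed in direction. The list's 1 higher member, at 18.9 RPKM untreated and 67.7 RPKM treated, was written down as a synthesis gene, but its name could not be checked. NCED3, which makes the hormone's precursor, was at 5.6 and 2.1 RPKM, a change of −1.09. Of the enzymes that inactivate the hormone, ABA8ox2 was at 11.8, 7.2, 10.2, 8.7 and 2.1 RPKM, a change of −2.05. ABA8ox1 was at 53.5, 54.7, 81.1, 46.4 and 106.2 RPKM, just short of 2-fold, and ABA8ox3 at 5.1 and 8.7 RPKM. Thus only ABA8ox2 was called among the 3. BZIP23, a transcription factor of the abscisic acid response, was at 27.5 and 9.0 RPKM, and P5CS1, of proline synthesis, at 19.3 and 7.6 RPKM. SALT (LOC_Os01g24710), a lectin induced by salt and drought, was at 98.9, 21.0, 175.5, 35.6 and 9.6 RPKM, a change of −3.24.

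Other hormone lists held few calls. Jasmonate synthesis and perception had 0 higher and 0 lower of 9 members, with a median of −0.25 (0.26 with equal upper quartiles, which made 2 higher). Its members included the synthesis genes AOS1 at 35.7 and 38.0 RPKM and AOC at 62.2 and 77.7 RPKM, and the receptor gene COI1b at 52.0 and 40.5 RPKM. The JAZ repressors, which hold jasmonate responses in check and are themselves induced by the hormone, had 0 calls of 11, with a median of 0.38; JAZ9 was at 31.6, 26.8, 1.7, 9.9 and 63.9 RPKM, just short of 2-fold. With equal upper quartiles 3 JAZ genes were higher. Of 4 cytokinin response regulators 2 were higher, or 4 with equal upper quartiles, with a median of 1.05. Among all loci 9.15% were higher and 30.1% lower. RR4, at 4.9 and 10.0 RPKM, and RR6 were under 5 RPKM untreated and entered only through the treated library. The count and the median of this list thus follow in part from the choice of loci. RR2 (LOC_Os02g35180) was at 10.6, 16.5, 3.2, 5.0 and 38.7 RPKM, a change of 1.78, and RR6 at 4.8, 12.6, 14.1, 7.5 and 12.4 RPKM, a change of 1.21. RR2 was more than 2-fold above each other shoot library, whereas RR6 was as high in the library labelled 20 µM 6 h and at 80 µM 6 h. Among 5 ethylene genes EIL1, a transcription factor of the ethylene response, was at the threshold, at 4.4 and 9.8 RPKM, the 1 higher member, or 1 of 2 with equal upper quartiles. Among 6 gibberellin genes 1 was higher and 1 lower, or 2 and 0 with equal upper quartiles. The higher one was SD1, a gibberellin 20-oxidase, at 2.1 and 6.7 RPKM, while SLR1, the DELLA repressor, was at 97.5 RPKM in both libraries. EIL1 and SD1 also entered only through the treated library. Of 5 auxin genes 1 was lower, GH3-8, which conjugates auxin, at 7.7 and 0.8 RPKM.

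Lipid genes, which the series' title names, were represented by 5 members, of which 3 were higher and 0 lower, with a median of 1.17. None of these 3 has a name that could be checked. Among all loci 9.15% were higher and 30.1% lower. SSI2, a stearoyl-ACP desaturase of fatty acid synthesis, was at 51.9, 50.3, 17.6, 18.8 and 76.0 RPKM, and PLDa1, a phospholipase D, at 85.2, 96.0, 109.5, 114.3 and 78.8 RPKM. Neither reached 2-fold.

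Heat shock proteins bind unfolded proteins. Of 17 small heat shock protein genes, 7 reached 5 RPKM; 1 was higher and 5 were lower, with a median of −1.36, against 9.15% higher and 30.1% lower among all loci. Of the 7, 3 were lower with equal upper quartiles. Most of the 5 lower members were under 5 RPKM treated and entered only through the untreated library. The count and median in shoots thus follow in part from the choice of loci. HSP16.0 (LOC_Os06g14240) was listed at 0 untreated and in the library labelled 20 µM 6 h, and was at 6.8, 4.4 and 12.1 RPKM in the other treated libraries. It entered the comparison only through the 80 µM 24 h library. HSP18.0 was at 38.9, 2.1, 100.8, 24.4 and 4.5 RPKM, a change of −2.86, and HSP17.9A at 23.6, 10.1, 78.9, 23.3 and 9.2 RPKM, a change of −1.27. Both were highest at 80 µM 6 h. HSP17.9B, the most abundant of them, was at 291.7 and 230.0 RPKM and was not called. The larger chaperones HSP70, HSP90 and HSP101 had 0 higher and 3 lower of 10 members, the share of lower calls among all loci (30.1%), with a median of −0.63. HSP81-1, an HSP90, was at 45.4, 46.8, 96.1, 58.5 and 34.5 RPKM, without a call. Of 9 members of the list for heat stress transcription factors, 1 was higher and 3 were lower, close to the shares among all loci (9.15% and 30.1%). HSFA2d was at 7.8 and 17.4 RPKM. HSFA6b and HSFA2b were at 6.6 and 6.3 RPKM untreated and both listed at 0 treated, so they entered only through the untreated library. The remaining lower member has no name that could be checked.

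Chaperones of the endoplasmic reticulum, where secreted proteins fold, were lower in 3 of 4 cases, against 30.1% of all loci, with a median of −1.36. PDIL1-1, a protein disulfide isomerase, was at 51.2, 69.4, 75.3, 50.4 and 9.0 RPKM, a change of −2.38, and BIP1, the reticulum's HSP70, at 59.4, 92.0, 68.1, 55.3 and 25.0 RPKM, a change of −1.22. Both were more than 2-fold below each other shoot library. With equal upper quartiles 1 member of the 4 was lower.

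Of 14 antioxidant enzyme genes, 2 were higher and 6 lower, with a median of −0.71, near the shares among all loci (9.15% and 30.1%), so the account rests on single genes. APX8 (LOC_Os02g34810), an ascorbate peroxidase of the chloroplast, was at 55.6, 97.1, 66.9, 72.9 and 224.4 RPKM, a change of 1.99. The cytosolic ascorbate peroxidases were lower, with APX1 at 49.7, 15.8, 67.4, 36.2 and 15.0 RPKM, a change of −1.66, and APX2 at 91.9, 88.9, 61.2, 51.9 and 41.0 RPKM, a change of −1.15. Thus APX8 was highest and APX1 and APX2 lowest in the treated library. APX7, another ascorbate peroxidase, was also lowest there, at 12.5 RPKM untreated and 9.6 RPKM treated, without a call. CATA, a catalase, was at 91.4, 99.7, 363.0, 402.2 and 42.8 RPKM, and CATB, another catalase, at 25.9, 26.7, 51.9, 48.4 and 6.8 RPKM. Of the superoxide dismutases, SODCC2 (cytosol) was at 60.8 and 19.7 RPKM and SODA (mitochondrion) at 28.9 and 12.7 RPKM, both lower, while SODCP (chloroplast) was at 28.8 and 48.9 RPKM, without a call. With median ratios or equal upper quartiles, 3 of the 14 were lower.

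Stress and defence regulators stayed mostly between the thresholds, as 60.8% of all loci did. The shares among all loci were 9.15% higher and 30.1% lower. Of 10 NAC and DREB transcription factors 1 was higher and 2 were lower, or 3 higher and 1 lower with equal upper quartiles, with NAC3 at 17.2 and 40.6 RPKM and DREB2A at 19.1 and 8.3 RPKM. Of 11 WRKY factors, 4 were lower and 0 higher, a share close to that of all loci, and with equal upper quartiles 0 were lower and 2 higher; WRKY76 was at 152.4, 206.3, 93.6, 64.3 and 52.3 RPKM. Among 3 measured defence genes CHT1, a chitinase, was lower at 87.3 and 14.0 RPKM. Of 9 genes for diterpenoid phytoalexins, the antimicrobial compounds of rice, 0 reached 5 RPKM. Phenylpropanoid genes, for phenylalanine ammonia-lyases and chalcone synthase, had 2 higher and 1 lower of 8 members, or 4 higher with equal upper quartiles, with CHS1 at 87.2 and 142.3 RPKM and PAL2 at 151.4 and 111.9 RPKM, neither of them called.

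Sugar metabolism held 1 of the deepest decreases. SUS1 (LOC_Os03g28330), a sucrose synthase that splits sucrose, was at 75.2, 181.7, 201.2, 204.1 and 0.6 RPKM, a change of −5.57. It was higher than untreated in the 3 other treated libraries and far below it at 80 µM 24 h. SWEET14, a sugar exporter, was at 12.4, 1.9, 3.2, 6.1 and 1.4 RPKM, and SUT1, a sucrose transporter, at 25.4, 11.6, 24.0, 13.2 and 11.2 RPKM, both lower. Over 6 members 1 was higher and 3 were lower, or 2 lower with median ratios, against 9.15% and 30.1% of all loci. Of the fermentation genes, ADH1, an alcohol dehydrogenase, was lower at 32.7 and 7.8 RPKM, and PDC2, pyruvate decarboxylase, was at 36.6 and 54.1 RPKM; AOX1A, the alternative oxidase, was at 8.3 and 5.6 RPKM, without a call.

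Cell wall synthesis and cell division genes were lower. Of 11 cellulose synthases and expansins, 8 were lower and 0 higher, against 30.1% and 9.15% of all loci, with a median of −1.32. In 10 of the 11 the treated library had the lowest value of the 5 shoot libraries, and 7 were at least 2-fold below each of the others, against 16.4% of all loci. Of the 11, 4 were lower with equal upper quartiles. Every cellulose synthase on the list was above its untreated value in all 3 other treated libraries. CESA4, CESA7 and CESA9, which make cellulose of secondary walls, were at 25.2 and 10.9 RPKM, 52.4 and 20.4 RPKM, and 39.1 and 18.4 RPKM in the untreated and treated libraries. CESA1 and CESA3 were at 49.8 and 29.6 RPKM and at 53.6 and 29.6 RPKM, short of 2-fold. CESA2, CESA8 and CESA5 fell further than these. CESA2 was at 12.5, 18.1, 23.4, 23.4 and 1.2 RPKM, a change of −2.62, and CESA8 at 49.3, 95.1, 69.4, 93.8 and 13.0 RPKM, a change of −1.85. CESA5 was at 14.9 RPKM untreated and 4.5 RPKM treated, a change of −1.53. EXPA4, an expansin that loosens growing walls, was at 30.1, 39.9, 20.7, 66.4 and 2.9 RPKM, a change of −3.00.

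Of 4 cell division genes 3 were lower, against 30.1% of all loci, with a median of −2.83. CDKB2;1 (LOC_Os08g40170), a mitotic cyclin-dependent kinase, was at 26.6, 8.1, 17.3, 7.1 and 1.0 RPKM, a change of −3.79. PCNA, the sliding clamp of DNA replication, was at 19.2, 11.6, 15.8, 4.6 and 1.7 RPKM, a change of −2.90, and CYCB1;1, a mitotic cyclin, at 9.8, 5.8, 12.5, 6.5 and 0.6 RPKM, a change of −2.75. The treated library was more than 2-fold below each other shoot library for all 3 of these genes. All 3 were under 5 RPKM in the treated library and entered only through the untreated one.

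**Figure D3:**
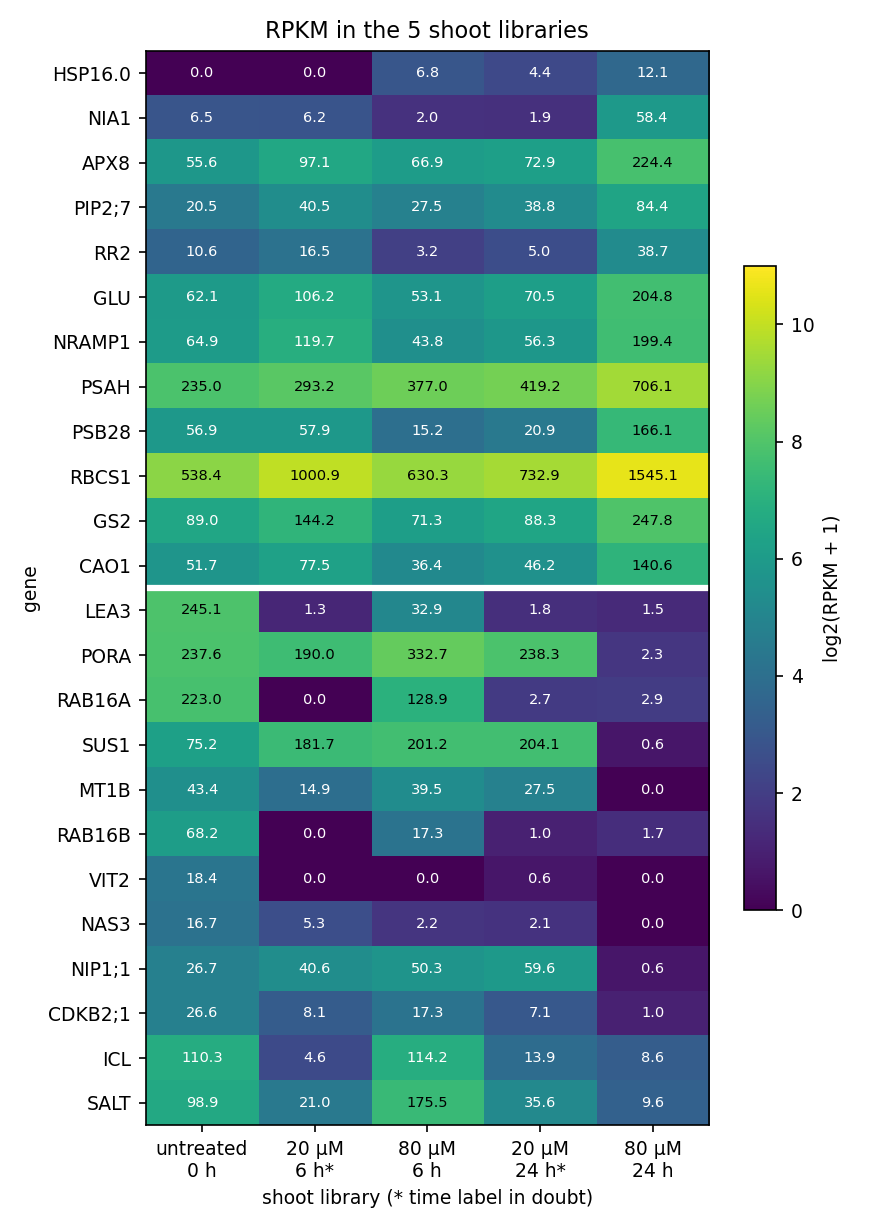
RPKM of the 12 named genes with the largest increase (upper rows) and the 12 with the largest decrease (lower rows) in each of the 5 shoot libraries, with the value printed in each cell and colour on a log2(RPKM + 1) scale; an asterisk marks libraries whose time label is in doubt. SUS1, NIP1;1 and PORA are low at 80 µM 24 h alone, at 0.6, 0.6 and 2.3 RPKM, whereas LEA3, RAB16A, RAB16B and VIT2 are also low in libraries labelled 20 µM.

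Clock genes, which follow the hour of day, were not at equal levels although both harvests fell at the same hour. LHY, which peaks around dawn, was at 114.6, 121.1, 48.8, 45.8 and 248.1 RPKM, a change of 1.11. GI, which peaks later in the day, was at 18.5, 26.5, 98.4, 77.3 and 3.1 RPKM, a change of −2.25, and PRR95 was at 10.9, 9.7, 44.4, 49.5 and 1.6 RPKM, a change of −2.19. The difference between LHY and the mean of 5 day-phased genes was 3.22 (log2) untreated, 3.21 in the library labelled 20 µM 6 h, 0.20 at 80 µM 6 h, 0.25 in the library labelled 20 µM 24 h and 5.93 at 80 µM 24 h. The treated library therefore lay outside the range of the other 4, with LHY above and GI and PRR95 below all of them. Genes of photosynthesis, nitrogen assimilation and iron cycle over the day as well; the part of clock phase in their differences was not tested. Of 8 clock genes 1 was higher and 5 were lower, against 9.15% and 30.1% of all loci, or 2 higher and 3 lower with equal upper quartiles.

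Some genes often used as references were also lower. GAPC, a glycolytic dehydrogenase, was at 56.1 and 16.3 RPKM, EF1A, an elongation factor, at 7.8 and 1.9 RPKM, and ACT1, an actin, at 73.6 and 38.5 RPKM, the last short of 2-fold. Of 4 members 2 were lower, against 30.1% of all loci, with a median of −1.26 (−0.79 with equal upper quartiles).

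Outside the gene lists, the loci with the largest changes have no name in the sources used here. LOC_Os08g26710 was at 2.6, 15.6, 15.9, 12.8 and 120.3 RPKM, a change of 5.07. LOC_Os01g09700 was listed at 0 untreated and was at 3.4, 5.4, 7.6 and 24.7 RPKM in the treated libraries. All treated shoot libraries were above the untreated one for both. LOC_Os04g41640 was at 256.2, 142.2, 144.8 and 139.5 RPKM and listed at 0 at 80 µM 24 h, and LOC_Os04g39150 was at 211.3, 211.9, 248.6 and 274.4 RPKM and listed at 0 there. These last loci were thus abundant in every shoot library but the treated one.

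Roots at the same dose and time gave a different picture for several gene groups. In roots 14128 loci were compared, of which 2467 (17.5%) were higher and 5071 (35.9%) lower, with a median of −0.47. The root and shoot differences share no library, and with 1 library per group the difference between the tissues was not tested. Of 10235 loci compared in both tissues, 118 were higher in both, 1429 lower in both, 293 higher in shoots and lower in roots, and 422 lower in shoots and higher in roots. Of the 604 loci higher in shoots, 48.5% were lower in roots and 19.5% higher, against 34.0% lower and 14.3% higher among all 10235. Of the 3107 lower in shoots, 46.0% were lower in roots and 13.6% higher. From the root side, 28.9% of the 1460 loci higher in roots were lower in shoots and 8.1% were higher, and of the 3479 lower in roots 41.1% were lower in shoots and 8.4% higher, against 30.4% lower and 5.9% higher among all. Across these loci the changes correlated weakly, with Pearson's r = 0.10 and Spearman's rho = 0.13; genes are not independent replicates.

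Several lists changed in opposite directions in the tissues. Of small heat shock protein genes 16 of 17 measured in roots were higher there, against 17.5% of all root loci, with a median of 5.81. In shoots, where fewer of them were measured, 1 of 7 was higher. Most of the 17 were under 5 RPKM in untreated roots and entered only through the treated root library. Their count and median in roots thus follow in part from the choice of loci and the pseudocount. HSP18.6 was at 14.5 and 2.0 RPKM in shoots and at 0.9 and 314.5 RPKM in roots, untreated and treated. Of abscisic acid genes 9 of 13 were higher in roots, with a median of 2.90, and LEA3 was at 4.5 and 168.0 RPKM there. Most of these 9 also entered only through the treated root library. NIP1;1 was at 0.2 and 19.7 RPKM in roots, where APR1 was at 30.7 and 359.3 RPKM. Each of these named genes was lower in shoots. Of all root loci 35.9% were lower. Light-harvesting and photosystem genes were lower in 17 of 17 cases in roots, with a median of −3.86, and nitrogen genes in 9 of 12, with a median of −1.45. GS2, for example, was at 25.2 and 1.3 RPKM in roots.

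Cell wall and cell division genes were lower in both tissues. The root counts below stand against 35.9% lower and 17.5% higher among all root loci. Cellulose synthases and expansins were lower in 12 of 12 cases in roots, with a median of −3.61, and cell division genes in 5 of 5, with a median of −2.41. SUS1, also lower in shoots, was at 182.8 and 18.1 RPKM in roots. Aquaporins and iron genes were lower in roots with fewer or opposite calls in shoots. Aquaporins were lower in 13 of 13 cases in roots, with a median of −2.50, beside 2 of 10 in shoots. The iron list had 14 of 17 lower and 0 higher in roots, where NAS1 was at 297.0 and 0.9 RPKM, beside 4 lower and 6 higher of 16 in shoots.

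**Figure D4:**
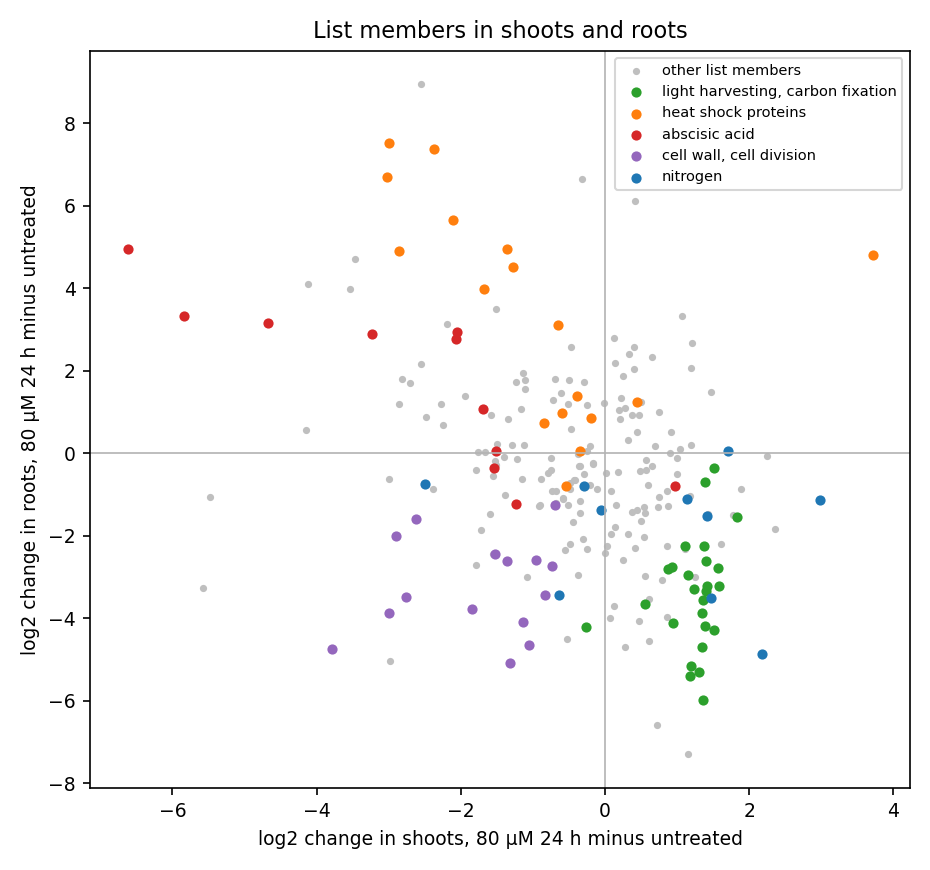
Each point is a list member compared in both tissues, with its log2 change at 80 µM 24 h in shoots on the x axis and in roots on the y axis; grey lines mark no change and colours mark gene lists. Heat shock (orange) and abscisic acid (red) genes lie mostly at the upper left, photosynthesis genes (green) at the lower right, and cell wall and cell division genes (purple) at the lower left.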

How the data were processed

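Per the labels' protocols, mRNA was selected with oligo(dT), primed with random hexamers and sequenced as paired 75-nt reads. The authors deposited RPKM values per locus and library, rounded to 1 decimal. BWA is named as a tool, per the submitters' processing notes. The sources used here do not give its version, the build, the annotation, the counting method or any use of strand, so overlapping and near-identical genes are uncertain. The small RNA tables were not used here.

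Values were compared as log2(RPKM + 1) with a minimum of 5 RPKM in either library. With 1 library per group there is no test, and calls at 2-fold are a description; a locus that reached the minimum in 1 library alone was the more likely to be called. An exact 0 is given as listed at 0, with no fold. The calling step was tested on simulated data. Changes were put only into loci well above the minimum, at an assumed depth that was not checked against these libraries. The simulation therefore does not cover calls near 5 RPKM, and it does not give the noise of these libraries at any level. Relative depth came from the steps between low values (1.5 to 6 RPKM) of the same genes. Medians of lists include genes listed at 0, whose change depends on the pseudocount.

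Gene lists of 367 identifiers in 36 lists, of which 281 reached the minimum (56 higher, 85 lower), were written from general knowledge and with earlier results of these data known. RefSeq ASM3414082v1 lists the name or an alias on the same chromosome for 257 of them, 4 of which were dropped for their order along it, leaving 253 printable names; of the 188 printable members 25 were higher and 63 lower. Some names were corrected and 3 identifiers added after that reference was at hand. Named genes are the 12 with the largest increase and the 12 with the largest decrease, up to 6 per list by size of change, the clock and reference genes, and 4 loci without names. BZIP23, P5CS1, NCED3, ABA8ox1, ABA8ox3, CATA, SODCP, SODCC1, APX7, CESA1, CESA3, CESA4, CESA9, NAS2, HSP17.9B, AOS1, PIP1;2, PIP2;1 and PIP2;2 were added after their values were seen. The other shoot libraries as reference, the comparison with each of 4 shoot libraries, the 5 day-phased genes and the depth window were also chosen after seeing the data. Promoter motifs were planned and not analysed here. Python 3.11.15, numpy 2.4.6, pandas 2.3.3 and matplotlib 3.10.9 were used.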

Additional observations from a re-analysis of the deposited data

Results flagged for a closer look

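For 12 named genes the change from untreated to 80 µM 24 h was at least 4-fold down in shoots and at least 4-fold up in roots, on the log2(RPKM + 1) scale, a limit chosen after seeing the data. Only list members with checked names were searched, in either direction. Members without a checked name include changes of this size in both directions. The share of all loci within this limit was not computed. At 2-fold, 422 of 10235 loci were lower in shoots and higher in roots, and 293 the other way. The difference between the tissues was not tested, since each group has 1 library. Among abscisic acid response genes, LEA3 changed by −6.62 in shoots and 4.94 in roots, RAB16A by −5.84 and 3.32, RAB16B by −4.68 and 3.17, RAB16C by −2.06 and 2.77, and SALT by −3.24 and 2.90. ABA8ox2, which inactivates abscisic acid, changed by −2.05 and 2.94. The RAB16 genes were listed at 0 in untreated roots, so their root values depend on the pseudocount. LEA3, ABA8ox2, HSP18.6, NIP1;1 and ICL were under 5 RPKM there. In roots all of these entered only through the treated library. In shoots LEA3, RAB16A, RAB16B, RAB16C, ABA8ox2, HSP18.6, HSP18.0, NIP1;1 and PRR95 were under 5 RPKM treated. They entered the shoot comparison only through the untreated library. Among heat shock proteins, HSP18.6 changed by −2.37 and 7.38 and HSP18.0 by −2.86 and 4.90. The remaining genes were the arsenite-permeable channel NIP1;1, at −4.11 and 4.11, the glyoxylate cycle enzyme ICL, at −3.54 and 3.99, the chitinase CHT1, at −2.56 and 2.18, and the clock gene PRR95, at −2.19 and 3.13.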

How the results depend on the processing

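No paired analysis was possible because each group has 1 library, and for the same reason no replicate could be left out. The planned count of promoter motifs was not run. Lower loci outnumbered higher ones under every setting tried. Of 13030 loci 1192 were higher and 3920 lower. A pseudocount of 5 gave 2327 lower, a minimum of 10 RPKM 2260 lower, no minimum 1850 higher and 7494 lower, and equal upper quartiles 2303 higher and 2529 lower. With another shoot library as reference, 2053 were higher against 80 µM 6 h and 1856 against the library labelled 20 µM 24 h. The median change was −0.32 with a pseudocount of 5, −0.49 with no minimum, and 0.04 with equal upper quartiles, where its sign changed.

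Some genes changed direction with another treated shoot library as the reference. Against the library labelled 20 µM 6 h these were ICL (0.78), NAS1 (−2.03), EIL1 (−0.33) and RR6 (−0.021). Against 80 µM 6 h they were APR1 (0.19), BZIP23 (0.029), RR6 (−0.17), SD1 (−0.13) and NAC3 (−0.51), and against the library labelled 20 µM 24 h APR1 (0.29), P5CS1 (0.017), EIL1 (−0.040) and SODA (0.11). The cause was not tested.

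Over loci of both tissues, a pseudocount of 5 left 753 lower in both, 64 higher in both, 179 higher in shoots and lower in roots, and 234 the other way. A minimum of 10 RPKM, which compares fewer loci, left 785, 186 and 252 for lower in both, higher in shoots and lower in roots, and the other way. Values near 5 RPKM rest on few reads, and absolute depth is unknown.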
